A study of Mus musculus with 12 samples.

Results

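Expression of 10 genes of pericentral hepatocytes, the liver cells that surround the central vein, was followed across 12 mouse liver libraries. The genes were taken by symbol. Glul, Oat, Slc1a2 and Rhbg handle glutamine, glutamate and ammonia, Cyp2e1 and Cyp1a2 are cytochromes, and Axin2, Tbx3, Lect2 and Lgr5 are linked to Wnt signalling. All 10 were found among the 14944 genes listed in any table, and 9 of them were among the 13371 genes listed for all 4 groups. Lgr5 was not listed for wild-type mice given DEN. A table lists a gene only where all 3 of its libraries reach a TPM (a length-scaled transcript share) of 0.01. By that rule not all 3 libraries of this group reached it for Lgr5, and which fell short is not shown. The 9 libraries that list Lgr5 had 0.61 to 1.69 TPM. The missing entry is therefore not a measured 0 for each library.

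In the liver lobule, blood flows from the portal vein to the central vein, and hepatocytes along this path use different genes. Endothelial cells of the central vein secrete the Wnt ligands Wnt2 and Wnt9b and the enhancer Rspo3. In nearby hepatocytes these stabilise beta-catenin, which acts with TCF/LEF factors on target genes, among them Glul, Axin2 and Lgr5. Pericentral hepatocytes take up the ammonia that periportal cells leave and fix it into glutamine, and they carry much of the liver's drug metabolism, including the CYP2E1 step that activates diethylnitrosamine.

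Male C57BL/6 mice, wild-type or Otud3 knockout littermates, either had no DEN or were given the hepatocarcinogen diethylnitrosamine (DEN), with 3 mice in each of the 4 groups. Otud3 encodes a deubiquitinase. DEN-treated mice received 1 intraperitoneal dose of 25 mg/kg at 15 days of age, and their tissue was collected 30 weeks later. The labels used here give neither an age nor a sham injection for the mice without DEN, so age and DEN cannot be told apart. The design text speaks of liver cancer tissue, while the labels give liver and no tumour content for any piece. The labels do not give the knockout's allele.

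The 6 libraries labelled knockout held 201 to 409 counts of Otud3, and the 6 of wild type held 350 to 560. The ranges overlapped, so these libraries are called the labelled knockout throughout. Each library held 29668861 to 31111765 counts. All 11 pan-hepatocyte markers were read in every library, and their summed level was 80130 to 131300 CPM. CPM here means counts per 1e+06 after TMM scaling of the library sizes. The library of DEN wild-type replicate 2 stood apart from the other 11 in the genes described below. Its summed pan-hepatocyte level, 102200 CPM, was within their range, and 70960 CPM of that sum was albumin (Alb). The tests of the 9 genes were made with and without this library.

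Promoter windows of 250 bases before to 50 bases after the transcription start were held by the RefSeq table (GRCm38.p6) for 7 of the 10 genes, but not for Rhbg, Tbx3 and Lgr5. The TCF/LEF cores CTTTGAT and CTTTGAA, searched on both strands, were found in 4 of the 7 windows, against 8.65% of 32851 RefSeq windows. CTTTGAT alone was in 3.73% of all windows and CTTTGAA in 5.14%. These 4 windows are shown because they carry a core that beta-catenin's DNA-binding partners recognise; capitals mark the match. Each is printed 5′ to 3′ in the gene's direction, and a match on the opposite strand reads ATCAAAG or TTCAAAG. The Slc1a2 window is chr2:102706188-102706487 on the plus strand, with its match starting at position -207 from the start, inside the span that RefSeq gives the gene. The Cyp2e1 window is chr7:140763569-140763868 on the plus strand, with its match at position -135. The Cyp1a2 window is chr9:57683606-57683905 on the minus strand, with its match at position -244. The Lect2 window is chr13:56548489-56548788 on the minus strand, with its match at position -32.
Slc1a2: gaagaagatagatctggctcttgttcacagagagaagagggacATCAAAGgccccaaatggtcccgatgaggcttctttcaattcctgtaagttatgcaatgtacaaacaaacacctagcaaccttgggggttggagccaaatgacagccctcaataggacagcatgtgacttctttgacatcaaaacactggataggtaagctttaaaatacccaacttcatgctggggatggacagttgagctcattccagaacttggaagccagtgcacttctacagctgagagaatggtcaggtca
Cyp2e1: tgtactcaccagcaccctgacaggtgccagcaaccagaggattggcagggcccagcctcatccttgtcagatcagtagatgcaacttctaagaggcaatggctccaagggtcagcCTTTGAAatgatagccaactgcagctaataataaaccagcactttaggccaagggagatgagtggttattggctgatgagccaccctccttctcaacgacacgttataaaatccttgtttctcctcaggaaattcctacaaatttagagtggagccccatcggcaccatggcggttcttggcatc
Cyp1a2: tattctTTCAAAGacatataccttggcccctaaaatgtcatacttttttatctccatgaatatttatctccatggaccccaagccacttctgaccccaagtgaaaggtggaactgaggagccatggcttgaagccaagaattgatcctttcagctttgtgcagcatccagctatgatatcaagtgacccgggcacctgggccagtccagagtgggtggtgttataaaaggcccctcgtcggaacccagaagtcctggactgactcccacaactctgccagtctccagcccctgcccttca
Lect2: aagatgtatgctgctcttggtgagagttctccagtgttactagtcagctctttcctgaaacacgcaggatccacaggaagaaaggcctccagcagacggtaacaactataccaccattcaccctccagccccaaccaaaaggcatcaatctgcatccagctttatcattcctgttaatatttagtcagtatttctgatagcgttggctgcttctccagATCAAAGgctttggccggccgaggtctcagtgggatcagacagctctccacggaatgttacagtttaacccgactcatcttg
The windows of Glul, Oat and Axin2 held neither core. The Axin2 window, chr11:108920099-108920398 on the plus strand, lies inside the span that RefSeq gives the gene. The bases around the outer start of that span were not searched. The Lect2 window also held GCGTG, the core bound by the aryl hydrocarbon receptor (1 of 7 windows, against 32.4% of all), and GTTAAT, part of the motif of HNF1 (1 of 7, against 7.1%). Neither overlapped the TCF/LEF match. A match is a run of letters and not a measured binding site.

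The genes spanned a wide range of transcript levels. Over the 11 libraries other than DEN wild-type replicate 2, Cyp2e1 had the highest median, 6348 TPM, with a range of 3970 to 7442. Oat followed at 742 TPM (484 to 1444), then Cyp1a2 at 641 (466 to 1298) and Glul at 454 (290 to 586). Those 3 ranges overlapped one another. Lect2 stood at a median of 189 TPM and Slc1a2 at 40.2, each apart from its neighbours. Rhbg had 8.17 TPM and Tbx3 6.37, with overlapping ranges, as had Axin2 at 1.61 and Lgr5 at 0.85, the latter over 9 libraries. The highest of the 11 libraries exceeded the lowest 1.45-fold in CPM for Cyp2e1 and 1.57-fold for Glul, but 4.41-fold for Tbx3 and 3.62-fold for Axin2.

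**Figure D1:**
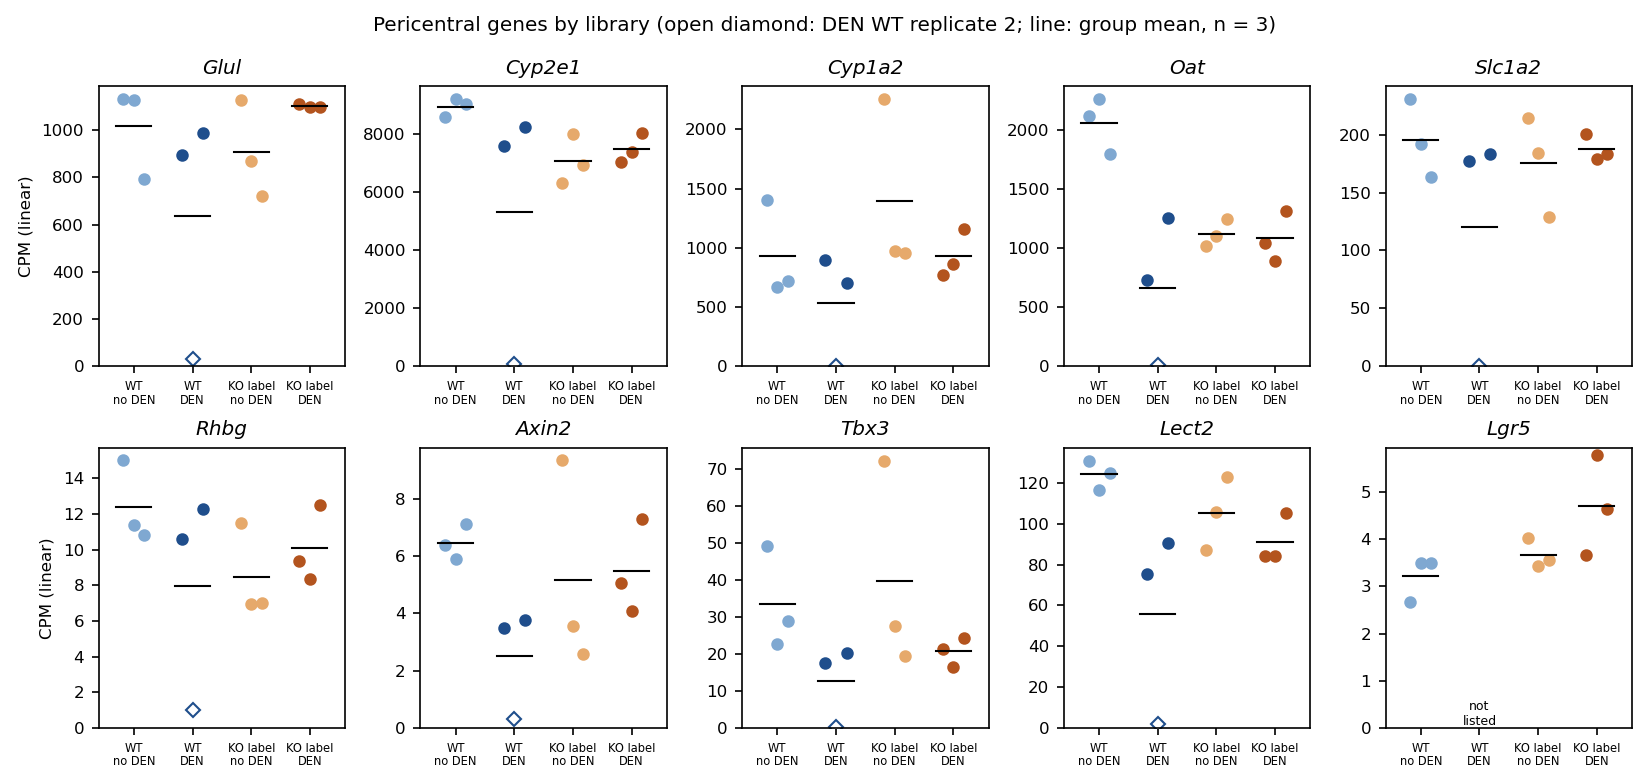
CPM of the 10 genes in each library on linear axes, by genotype label and treatment. Each point is 1 mouse, the line is the group mean, and the open diamond is DEN wild-type replicate 2, which lies at the bottom of all 9 panels in which it was listed (32.3 CPM for Glul, 0.677 for Slc1a2).

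Glul encodes glutamine synthetase, which makes glutamine from glutamate and ammonia (chr1:153899929-153909723, GRCm38.p6). Its level in the wild type without DEN was 1132, 1129 and 795 CPM, and in the labelled knockout without DEN 1129, 870 and 721 CPM. With DEN it was 894, 32.3 and 988 CPM in wild type and 1111, 1097 and 1100 CPM in the labelled knockout. The 3 DEN libraries of the labelled knockout were nearly alike, and DEN wild-type replicate 2 was far below all others. Oat encodes ornithine aminotransferase, which feeds ornithine into glutamate (chr7:132557475-132576398). Without DEN it had 2117, 2259 and 1797 CPM in wild type and 1015, 1105 and 1244 CPM in the labelled knockout. With DEN it had 728, 8.10 and 1258 CPM in wild type and 1043, 894 and 1315 CPM in the labelled knockout. The wild-type libraries without DEN were above the 9 others.

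Slc1a2 encodes the glutamate transporter GLT-1 (chr2:102658239-102790784). It had 230, 192 and 164 CPM in wild type and 214, 184 and 129 CPM in the labelled knockout without DEN. After DEN it had 177, 0.677 and 183 CPM in wild type and 201, 179 and 184 CPM in the labelled knockout. Apart from 1 library, the groups overlapped. Rhbg encodes an ammonium transporter of the Rh family (chr3:88242874-88254739). It had 15.0, 11.4 and 10.8 CPM in wild type and 11.5, 6.97 and 6.99 CPM in the labelled knockout without DEN. The DEN libraries had 10.6, 1.03 and 12.3 CPM in wild type and 9.38, 8.35 and 12.5 CPM in the labelled knockout. Here too the groups overlapped outside DEN wild-type replicate 2.

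Cyp2e1 encodes the cytochrome that oxidises ethanol and small nitrosamines (chr7:140763819-140774990). In mice without DEN it had 8575, 9203 and 9037 CPM in wild type and 6335, 7991 and 6952 CPM in the labelled knockout. In mice given DEN it had 7597, 69.1 and 8241 CPM in wild type and 7032, 7376 and 8056 CPM in the labelled knockout. Every wild-type library without DEN was above every other library. Cyp1a2 encodes a cytochrome induced through the aryl hydrocarbon receptor (chr9:57676937-57683655). The libraries without DEN had 1403, 669 and 722 CPM in wild type and 2253, 971 and 956 CPM in the labelled knockout. With DEN it had 894, 4.49 and 700 CPM in wild type and 775, 860 and 1159 CPM in the labelled knockout. Replicate 1 was the highest library of both groups without DEN.

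Axin2 encodes a scaffold of the beta-catenin destruction complex and is itself a Wnt target (chr11:108917828-108950783). Without DEN it had 6.37, 5.88 and 7.11 CPM in wild type and 9.33, 3.54 and 2.58 CPM in the labelled knockout. After DEN it had 3.48, 0.326 and 3.75 CPM in wild type and 5.06, 4.08 and 7.30 CPM in the labelled knockout. With DEN, all wild-type libraries were below all labelled knockout libraries. Tbx3 encodes a T-box transcription factor (chr5:119670534-119684724). In mice without DEN it had 49.1, 22.8 and 29.0 CPM in wild type and 72.3, 27.5 and 19.5 CPM in the labelled knockout. The DEN libraries had 17.6, 0.376 and 20.4 CPM in wild type and 21.4, 16.4 and 24.5 CPM in the labelled knockout. As for Cyp1a2, replicate 1 was highest in both groups without DEN.

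Lect2 encodes a secreted hepatocyte protein (chr13:56529734-56548559). The libraries without DEN had 131, 117 and 125 CPM in wild type and 87.3, 106 and 123 CPM in the labelled knockout. In mice given DEN it had 75.6, 1.73 and 90.8 CPM in wild type and 84.3, 84.2 and 105 CPM in the labelled knockout. The DEN wild-type libraries were all below the wild-type libraries without DEN. Lgr5 encodes a receptor for R-spondins (chr10:115450314-115587780). It had 2.67, 3.50 and 3.50 CPM in wild type and 4.03, 3.43 and 3.57 CPM in the labelled knockout without DEN, and 3.68, 5.79 and 4.63 CPM in the labelled knockout with DEN. In a fit of the 9 libraries of these groups, Lgr5 had a log2 fold change of 0.36 ± 0.21 (SE) with DEN in the labelled knockout (edgeR adjusted p = 0.309), where 2.8% of 12766 genes passed an adjusted p of 0.05.

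In DEN wild-type replicate 2, all 9 listed genes were more than 4-fold below the mean CPM of replicates 1 and 3 of the same group. Over all 12909 genes tested, 5.05% were that far lower. The library is described here without a test, since it is a single mouse. Slc1a2 stood at 0.376% of the mean of its group mates (95% exact Poisson interval 0.248 to 0.547, which covers counting error only), from 27 counts. Cyp1a2 stood at 0.563%, Oat at 0.816% and Cyp2e1 at 0.873%. Tbx3 and Lect2 were at 1.98% and 2.08% and Glul at 3.44%. The least reduced were Rhbg at 9.0% and Axin2 at 9.02% (4.80 to 15.4), the latter from 13 counts. Of all genes, 4.23% were more than 4-fold higher. All 9 were also below all 11 other libraries, as were 27.8% of all genes. The listed genes together made up 0.0151% of this library's counts, against 0.929% to 1.33% in each other library. In bulk tissue, fewer cells of a type and less RNA per cell cannot be told apart.

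Other pericentral genes were low in the same library. Of 29 further pericentral hepatocyte genes tested, 20 were more than 4-fold lower than in the group mates and 1 was more than 4-fold higher, with a median of 6.49%, against a median of 100% for all genes. Cyp2c29, a drug-metabolising cytochrome, was at 0.583%, the nuclear receptor Nr1i3 at 1.90% and Gulo, of ascorbate synthesis, at 9.23%. The 2 genes of the 29 with a higher level than the group mates were Cyp2a5, at 450%, and the glutathione transferase Gstm1, at 212%. Cyp2a5 reads can be split with those of Cyp2a4, which had 10480 CPM there and at most 130 elsewhere. Periportal genes were low in part: 11 of 25 were more than 4-fold lower and 5 more than 4-fold higher, with a median of 28.8%. Among them Sds, serine dehydratase, was at 3.24% and Pck1, of gluconeogenesis, at 4.09%, while the adhesion gene Cdh1 was at 576%. None of the 11 pan-hepatocyte markers was more than 4-fold away, where 5.05% of all genes were that far lower and 4.23% that far higher. Singly they went both ways, 5 lower and 6 higher than the group mates, from Foxa2 at 40.4% to Foxa3 at 142.8%. Alb, albumin, was at 123%, Hnf4a at 62.6% and Apob at 75.1%. Of the 11, 3 (Foxa2, Hnf4a and Apob) were below all 11 other libraries, near the 27.8% of all genes, and none was above them all.

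**Figure D2:**
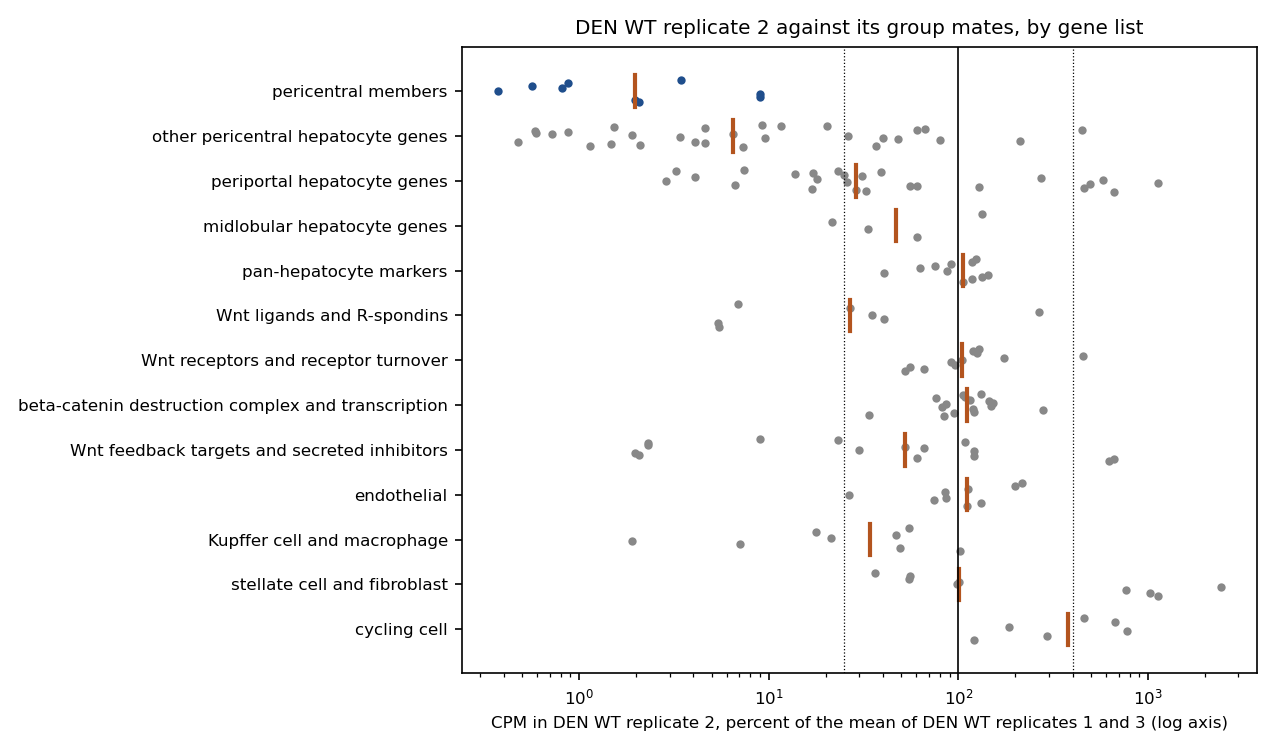
CPM in DEN wild-type replicate 2 as a percent of the mean of DEN wild-type replicates 1 and 3, on a log axis, by gene list. Each point is 1 gene, the orange bar is the list's median, the solid line marks 100% and the dotted lines mark 4-fold lower and higher. The 9 pericentral genes lie between 0.376% and 9.02%. The pan-hepatocyte markers lie between 40.4% and 142.8%, with a median of 106%.

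Along the Wnt pathway, 3 of 7 ligands and 6 of 15 feedback targets and secreted inhibitors were more than 4-fold lower in this library. Of the 7 ligands, 6 were lower than in the group mates and 1, Wnt5a, was higher, at 265%. Of 11 receptors and genes of receptor turnover, none was more than 4-fold lower. Among these 11, 1 was more than 4-fold higher, Fzd6 at 456%, and the median was 105%. Wnt2 had 0.226 CPM against 3.35 and 3.17 in the group mates, from 9 counts. Rspo3 had 0.201 CPM against 4.20 and 3.11, from 8 counts, and Wnt9b was read 3 times, at 5.41% (95% interval 1.12 to 15.8). The range of Wnt9b in the other libraries reached down to 0.230 CPM. Among feedback targets, Notum, a secreted Wnt inhibitor, had 0.602 CPM against 25.3 and 26.9, and Sp5, a transcription factor, was read 2 times, at 2.31% (0.280 to 8.36). Nkd1, which binds Dishevelled, was at 23.2%. The 15 include Axin2, Tbx3 and Lect2, which are among the 6 that were lower. Of the 15, 2 were more than 4-fold higher: Ccnd1 at 661% and Myc at 626%, both drivers of proliferation. Of 16 genes of the destruction complex and of beta-catenin transcription, none was more than 4-fold away. That is near the share of all genes, where 5.05% were that far lower and 4.23% that far higher. Ctnnb1, which encodes beta-catenin, was at 132% and its partner Tcf7l2 at 120%.

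Genes of ammonia and amino acid handling went both ways there. Of 18 tested, 5 were more than 4-fold lower, 4 of them the members Glul, Oat, Slc1a2 and Rhbg, and 3 were higher. Aldh18a1, of proline synthesis, was at 1755% and the neutral amino acid transporter Slc1a4 at 866%. Markers of other cells also differed in this library. The 9 endothelial markers summed to 215 CPM, within the 211 to 220 CPM of the DEN wild-type group. None was more than 4-fold away, where 5.05% of all genes were that far lower and 4.23% that far higher. Singly they went both ways, 4 lower and 5 higher than the group mates, from Clec4g at 26.4% to Cdh5 at 198% and Pecam1 at 216%. The 9 stellate cell and fibroblast markers summed to 405 CPM, against at most 257 in the labelled knockout with DEN. Of these 9, 4 were more than 4-fold higher than in the group mates, the collagens Col1a1, Col3a1 and Col1a2 and the actin Acta2, at 766% to 2423%. The other 5 included Dcn at 36.5%, Reln at 54.7% and Lrat at 55.6%, and the median of the 9 was 101%. The 6 cycling cell markers summed to 19.0 CPM, against at most 6.79 outside the DEN wild-type group. The 8 Kupffer cell markers summed to 90.9 CPM, the lowest of the DEN wild-type group, which reached 295 CPM. That was within the 42.8 to 149 CPM of the libraries without DEN, and against 167 to 869 CPM in the labelled knockout with DEN. Of the 8, 4 were more than 4-fold lower than in the group mates, from Marco at 1.91% to Vsig4 at 21.4%. In all, 7 were lower and 1, Cd68 at 102%, was higher. The 869 CPM belonged to labelled knockout replicate 1 with DEN, where Marco had 260 CPM and at most 14.2 elsewhere. No marker of these lists listed in all tables was at 0 in any library, and the part of these cells in the levels above was not tested. The tumour marker Afp had 56.5 CPM there and at most 4.21 elsewhere.

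**Figure D3:**
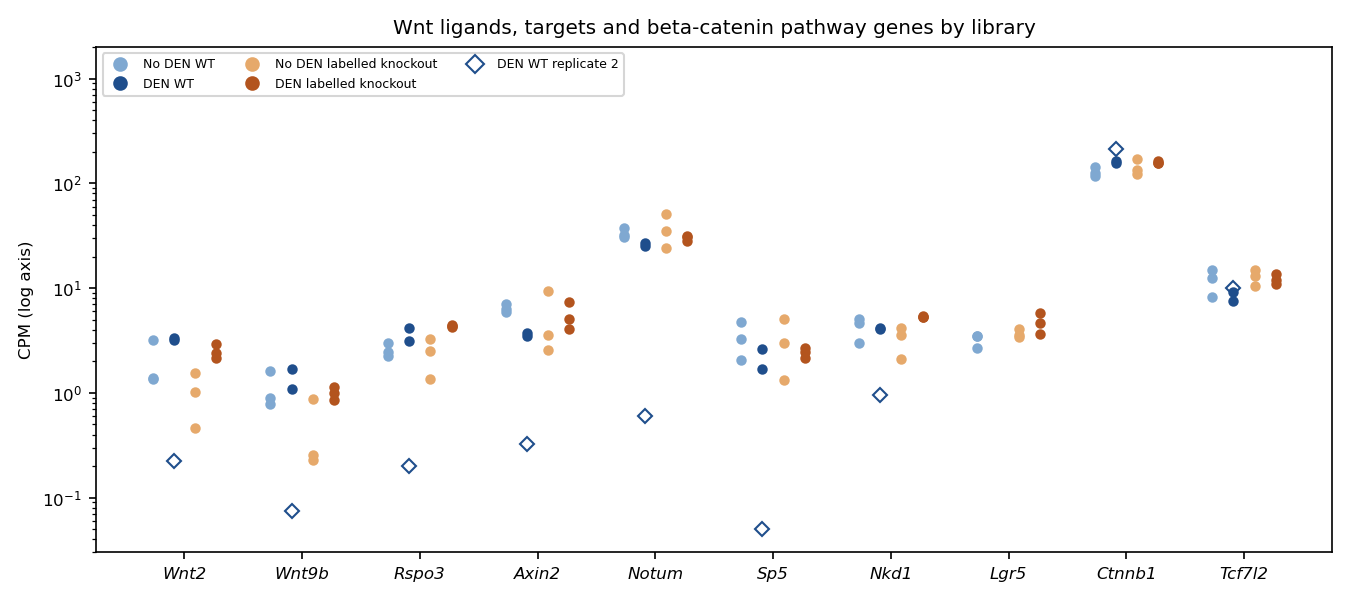
CPM of Wnt ligands, Wnt targets and 2 pathway genes in each library on a log axis. Points are mice coloured by group, and open diamonds are DEN wild-type replicate 2, which lies below the other libraries for Wnt2, Wnt9b, Rspo3, Axin2, Notum, Sp5 and Nkd1 and above them for Ctnnb1 (211 CPM).

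With DEN against no DEN in wild type, none of the 9 genes passed the test over all 12 libraries. All 9 log2 fold changes were negative, from -0.65 ± 0.62 (SE) for Rhbg to -1.63 ± 1.02 for Oat (edgeR adjusted p = 0.299), with a median of -0.81 against 0.03 for all genes. Of all genes, 2.74% passed with 12 libraries. With the 11 libraries other than replicate 2, all 9 were still negative, but their median was -0.22, against 0.0042 for all genes. At an unadjusted p under 0.05 the count was 0 by edgeR, 1 by DESeq2 and 2 by limma-voom with 12 libraries. Of all 12909 genes, 3828, 4060 and 3610 reached it, in that order. With 11 libraries the edgeR count was 2 of the 9, and 3258 of all 12962 genes. Without replicate 2, the log2 level of Oat fell by 1.05 ± 0.25 (edgeR adjusted p = 0.0468), and the other 8 did not pass, where 3.42% of genes passed. Lect2 had -0.58 ± 0.16 (edgeR adjusted p = 0.074), Tbx3 -0.82 ± 0.52 and Axin2 -0.83 ± 0.47, while Glul had -0.11 ± 0.21 and Cyp2e1 -0.17 ± 0.15. For Cyp2e1, Oat, Axin2, Tbx3 and Lect2, 5 of 9, every DEN library was below every library without DEN, against 17.6% of all genes with 12 libraries and 25.3% with 11. None of the 9 was higher throughout, against 18.4% and 26.1%. The Oat call was lost on leaving out any further library but labelled knockout replicates 1 and 3 without DEN, with log2 fold changes of -1.5 to -0.71 and an edgeR adjusted p of up to 0.405, reached without DEN wild-type replicate 1. With library size scaling it was lost as well (-0.90, edgeR adjusted p = 0.069).

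In the labelled knockout, DEN against no DEN gave no call among the 9 genes, where 0.194% of all genes passed with 12 libraries and 7.04% with 11. At an unadjusted p under 0.05 the count was 0 by edgeR, by DESeq2 and by limma-voom with 12 libraries. Of all 12909 genes, 2458, 2638 and 2237 reached it, in that order. With 11 libraries the edgeR count was 0 of the 9, and 3702 of all 12962 genes. Glul had a log2 fold change of 0.28 ± 0.79 with 12 libraries and 0.29 ± 0.18 with 11 (edgeR adjusted p = 0.336). Tbx3 had -0.94 ± 0.45 with 11 libraries (edgeR adjusted p = 0.205) and Cyp1a2 -0.58 ± 0.38; both had a high value in labelled knockout replicate 1 without DEN. Oat had -0.04 ± 0.21 with 11 libraries, and its 12-library value of -0.05 turned to 0.23 with library size scaling. The difference between the DEN effects of the genotypes was 1.01 ± 0.32 for Oat with 11 libraries and did not pass (edgeR adjusted p = 0.686). No gene of the 9 had groups that did not overlap, against 16.5% of all genes lower and 14.8% higher. For the interaction, 0.0% of all genes passed and 0 of 9 pericentral genes, with either set of libraries. At an unadjusted edgeR p under 0.05 the interaction had 842 genes and none of the 9 with 12 libraries. With 11 it had 878 genes, Oat among them. DESeq2 with 12 libraries called 13 genes and none of the 9.

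**Figure D4:**
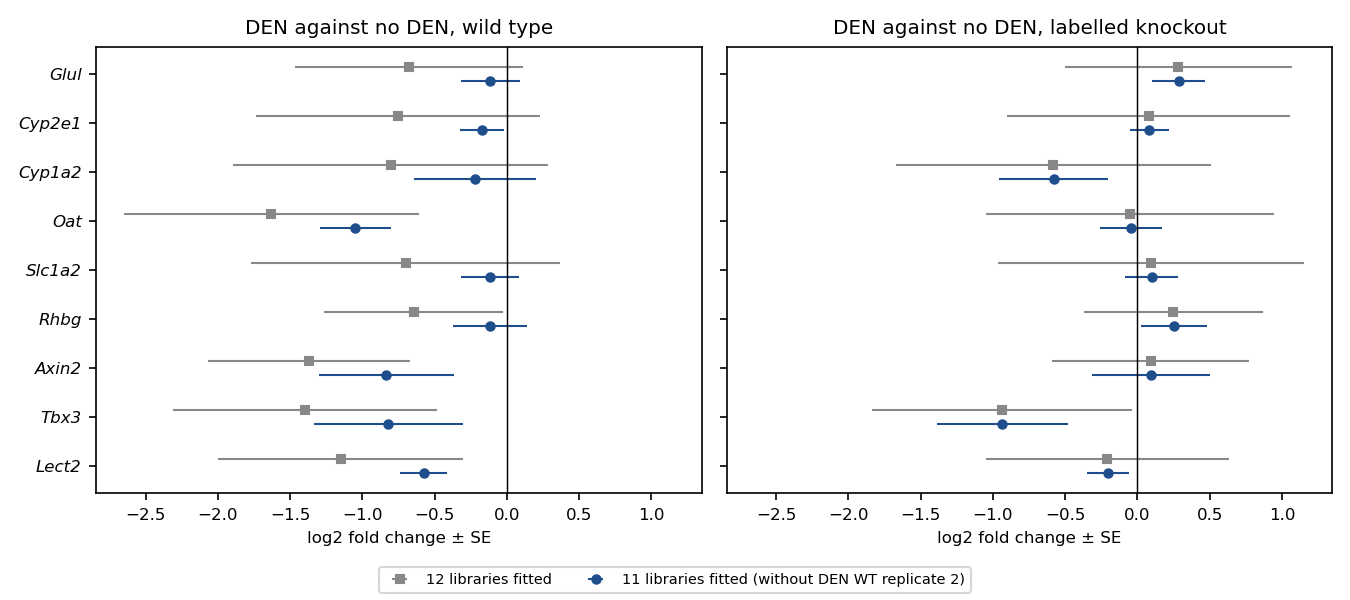
Log2 fold change of DEN against no DEN with its SE for the 9 tested genes, in wild type and in the labelled knockout. Grey squares are the fit of 12 libraries and blue circles the fit of 11 without DEN wild-type replicate 2; in wild type the values of Oat moved from -1.63 to -1.05 and those of Glul from -0.68 to -0.11.

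Averaged over both genotypes, the DEN effect gave no call among the 9 genes with 12 libraries, where 16.5% of all genes passed. The count at an unadjusted p under 0.05 was 0 by edgeR, 0 by DESeq2 and 1 by limma-voom with 12 libraries. Of all 12909 genes, 4628, 4780 and 4369 reached it, in that order. With 11 libraries the edgeR count was 3 of the 9, and 5070 of all 12962 genes. Without DEN wild-type replicate 2, the log2 level of Oat fell by 0.55 ± 0.16 (edgeR adjusted p = 0.0346) and that of Lect2 fell by 0.39 ± 0.11 (edgeR adjusted p = 0.0288), 2 of 9 where 23.5% of genes passed. That share is close to the background. The Oat call was lost on leaving out any further library but DEN wild-type replicate 3, labelled knockout replicate 1 without DEN and labelled knockout replicate 3 with DEN, with log2 fold changes of -0.77 to -0.38. The Lect2 call was lost without wild-type replicates 1 or 3 in either treatment, or labelled knockout replicates 1 or 2 with DEN, with values of -0.46 to -0.33. Over both genotypes, none of the 9 had every DEN library below every library without DEN, against 4.79% of all genes with 12 libraries and 7.26% with 11. Scaled by library size alone, the 2 values were -0.34 (edgeR adjusted p = 0.151) and -0.18 (edgeR adjusted p = 0.26). This scaling moved the median of all genes by 0.27 on the log2 scale. The sum of the 9 endothelial markers was 60.0 to 109 CPM without DEN and 173 to 220 CPM with DEN, and 8 of the 9 rose in the same comparison; the part of that change in the hepatocyte genes' CPM was not tested.

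Without DEN, the labelled knockout gave no call against wild type, among the 9 genes or among all genes (0.0%). With 12 libraries the smallest edgeR adjusted p over all genes was 1, and 477 genes and none of the 9 had an unadjusted edgeR p under 0.05. With 11 libraries the smallest was 0.447, and 1093 genes had an unadjusted edgeR p under 0.05, with Oat, Cyp2e1 and Rhbg of the 9 among them. With 12 libraries DESeq2 called 5 genes, none of the 9. Every labelled knockout library was below every wild-type library for Cyp2e1 and Oat, 2 of 9 against 5.64% of all genes, and none was higher throughout, against 4.76%. Oat had a log2 fold change of -0.88 ± 1.0 with 12 libraries and -0.87 ± 0.21 with 11 (edgeR adjusted p = 0.456), a mean of 1122 ± 115 CPM (SD, n = 3) against 2058 ± 237. Cyp2e1 had -0.33 ± 0.14 with 11 libraries (edgeR adjusted p = 0.581). Lgr5, in the 9 libraries, had 0.20 ± 0.22 (edgeR adjusted p = 0.877).

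With DEN, the labelled knockout was higher than wild type in the fitted value of all 9 genes with 12 libraries, and none passed, as for all genes (0.0%). An unadjusted edgeR p under 0.05 was reached by 1308 genes and none of the 9 with 12 libraries, and by 994 and none with 11, and DESeq2 called 160 genes and none of the 9. The values ranged from 0.34 ± 0.62 for Rhbg to 1.13 ± 0.70 for Axin2 (edgeR adjusted p = 0.575). With 11 libraries the median of the 9 was 0.14, and Cyp2e1 and Rhbg turned to -0.07 ± 0.15 and -0.17 ± 0.25. Glul and Axin2 were higher in every labelled knockout library, 2 of 9, against 8.22% of all genes with 12 libraries and 17.0% with 11. None was lower throughout, against 11.4% and 19.7%.

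Labelled knockout replicate 1 without DEN also stood apart in some of the genes. It had the highest Tbx3, Axin2 and Cyp1a2 of all libraries, and lower Cyp2e1 and Lect2 than the other libraries without DEN. It also had 8398 CPM of Saa1, an acute phase gene, against at most 728 elsewhere, and 6.60 CPM of Cyp1a1, a target of the aryl hydrocarbon receptor, against at most 1.91. Without this library, the log2 fold change of Tbx3 between the labelled knockout and wild type without DEN was -0.52 in place of 0.24. The part of the acute phase in these levels was not tested.

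Other genes of the pathway were set beside these in the mean DEN effect, where 16.5% of all genes passed with 12 libraries and 23.5% with 11. Of 29 further pericentral genes, 2 rose and 1 fell with 12 libraries, and 3 rose and 5 fell with 11. Csad, of taurine synthesis, rose by a log2 fold change of 1.04 ± 0.22 (edgeR adjusted p = 0.0157), and Cyp2a5 rose by 1.94 ± 0.44 (edgeR adjusted p = 0.0187). Avpr1a, the vasopressin receptor, fell by 2.13 ± 0.55 (edgeR adjusted p = 0.0287), with 7.74 to 26.7 CPM without DEN and at most 6.67 with DEN. Of 7 Wnt ligands none passed with 12 libraries. With 11 libraries 2 rose: Wnt2 by 1.01 ± 0.31 (edgeR adjusted p = 0.0406) and Rspo3 by 0.70 ± 0.21 (edgeR adjusted p = 0.0363). All 9 endothelial markers rose in that fit too, and their part in the ligand levels was not tested. Of 11 receptors, 1 rose with 12 libraries: Fzd4, by 0.90 ± 0.24 (edgeR adjusted p = 0.0337). With 11 libraries 2 receptors also fell, named here after their values were seen: Fzd6 by 1.16 ± 0.23 (edgeR adjusted p = 0.00911) and Lgr4 by 0.38 ± 0.11 (edgeR adjusted p = 0.0292). No receptor fell with 12 libraries. In the DEN library left out, Fzd6 went the other way, with 4.74 CPM or 456% of its group mates, and Lgr4 was at 55.6%. Of 15 feedback targets and secreted inhibitors 3 rose with either set of libraries, and 1, Lect2, fell with 11. With 12 libraries Tnfrsf19 rose by 1.39 ± 0.30 (edgeR adjusted p = 0.0171), Sfrp1, at most 0.549 CPM, by 1.4 ± 0.34 and Dkk3 by 0.91 ± 0.25. Notum and Sp5 had -0.60 ± 0.57 and -0.78 ± 0.59. Of 16 genes of the destruction complex and beta-catenin transcription, Dvl2 rose by 0.66 ± 0.18 and Bcl9 fell by 0.51 ± 0.11 with 12 libraries. With 11 Dvl3 also rose, by 0.29 ± 0.08 (edgeR adjusted p = 0.0328). With 12 libraries Ctnnb1 had 0.31 ± 0.12 (edgeR adjusted p = 0.089). Csad, Cyp2a5, Avpr1a, Fzd4, Tnfrsf19, Sfrp1, Dkk3, Dvl2 and Bcl9 also passed with 11 libraries. Of 25 periportal genes none passed with 12 libraries, and 5 fell with 11; Hal, of histidine breakdown, had -1.05 ± 0.35 with 12 libraries (edgeR adjusted p = 0.0594). Between the labelled knockout and wild type with DEN, no gene of these lists passed. Rnf43 and Znrf3, the ubiquitin ligases that remove Frizzled receptors, had 1.20 ± 0.42 (edgeR adjusted p = 0.406) and 0.55 ± 0.19 (edgeR adjusted p = 0.399), and Tnfrsf19 had 1.34 ± 0.42 (edgeR adjusted p = 0.369).

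The genes with the pattern most like the mean of the 9 were sought among 11199 others, by the root mean square difference of z-scored log2 CPM. Over 12 libraries the nearest were Wfdc21 (0.118), Cib2 (0.124), Bckdhb (0.134), Adhfe1 (0.136) and Aqp9 (0.143), against a median of 1.36. Each of these was lowest in DEN wild-type replicate 2; Wfdc21 had 0.777 CPM there and 141 to 321 elsewhere. Over the 11 other libraries the nearest were Gadd45a (0.342), Slc22a5 (0.394), Inf2 (0.430), Inhbe (0.480) and Pdp2 (0.482), against a median of 1.33, so other genes lay nearest once that library was left out. In the library left out, Gadd45a went opposite to the 9 genes, with 45.7 CPM against 1.47 to 13.4 elsewhere. There Slc22a5, Inf2, Inhbe and Pdp2 were each below all other libraries.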

How the data were processed

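Per the file headers, 4 deposited tables, 1 per group, give a read count and a TPM for each gene in each of 3 libraries. The deposited read counts are expected counts that the authors estimated per gene; 6.58% to 7.39% of a library's entries are fractional. TPM was scaled by transcript length before the authors deposited it. The submitters' processing notes name RSEM 1.3.1, HISAT2 2.2.1, DESeq2 1.4.5, Bowtie2 2.3.4.3 and the build GRCm38.p6, with no roles. The strand setting is not given in the sources. Counts were rounded and fitted with edgeR 4.0.16 (TMM, filterByExpr, robust quasi-likelihood, R 4.3.3): 1 coefficient per group, 12 libraries, 12909 genes, 8 residual degrees of freedom, Benjamini-Hochberg adjustment over all genes, threshold 0.05. "Rose" and "fell" mean past that threshold. CPM and TPM were compared within and between genes, respectively. The fit was repeated without DEN wild-type replicate 2 and, for Lgr5, without the DEN wild-type group; both follow from values already seen. Alternatives were DESeq2 1.42.0, limma-voom (limma 3.58.1), RLE and library size scaling, no filter, only the groups compared, a replicate block, missing entries set to 0, log2(TPM + 0.1) with limma and leaving out each library. The steps were tested on simulated data. The genes and lists were chosen with earlier results of these data known. The rule for named genes takes all 10, up to 4 of each list by the smallest p for the mean DEN effect, up to 2 for the label with DEN, and the 5 nearest patterns; only some of the list genes it takes are described. Other genes, such as those given for DEN wild-type replicate 2, were chosen after their values were seen. Reads of overlapping or near-identical genes cannot be told apart. Gene identifiers matched RefSeq for 14908 of 14944.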

Additional observations from a re-analysis of the deposited data

How the results depend on the processing

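Over 54 pairs of a gene and a comparison, 1116 alternative values kept their direction and side of the threshold in 1091 cases, reversed in 22 and newly passed in 3. Of the pairs, 42 never reversed. None of the 9 genes passed with 12 libraries, so keeping the side means staying uncalled. Most alternatives also keep DEN wild-type replicate 2, which widens the standard errors for DEN in wild type, so the 1091 cases do not show that a result is firm. Setting missing entries to 0 gave 1 call, Lgr5, in the DEN comparison of wild type, the mean DEN effect, the label with DEN and the interaction; by construction these zeros are the entries the table does not list. Leaving out 1 library gave 0 to 1 calls for DEN in wild type and 0 to 2 for the mean DEN effect, and the calls came without DEN wild-type replicate 2. With library size scaling, DEN in the labelled knockout turned to 0.23 for Oat and 0.064 for Lect2, and the mean DEN effect to 0.026 for Glul and 0.035 for Rhbg. With log2 TPM, Oat and Lect2 turned to 0.34 and 0.21 with DEN in the labelled knockout, and Tbx3 to -0.035 for the label without DEN; the cause was not tested. Leaving out 1 library gave, for DEN in the labelled knockout, -0.21 to 0.071 for Oat, -0.087 to 0.26 for Slc1a2 and -0.23 to 0.84 for Axin2. It gave, for the mean DEN effect, -0.43 to 0.086 for Glul and -0.43 to 0.067 for Rhbg, and for the label without DEN, -0.32 to 0.028 for Slc1a2 and -0.52 to 0.62 for Tbx3. For the label with DEN it gave -0.070 to 0.97 for Cyp2e1 and -0.17 to 0.81 for Rhbg, and for the interaction -0.36 to 0.82 for Cyp1a2 and -0.11 to 1.22 for Tbx3.

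With the replicate block, 0 of the 9 genes were called in each comparison. Deviations of same-numbered libraries were weakly correlated (r of -0.19 to 0.22, over 0.1 in 4 of 18 pairs). All pairs of replicate 3 were positive, from 0.0166 to 0.22. These values cannot show whether such libraries share more than a number, and the block was kept as an alternative.

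Of the calls without DEN wild-type replicate 2, Oat in the mean DEN effect was lost in 9 of 16 further alternatives and Lect2 in 7 of 16. With 3 mice per group and 1 library far from its group mates, the 12-library standard errors of these genes for DEN in wild type were 0.62 to 1.09 on the log2 scale, and absence of a call does not show that levels were alike. The count of all genes called for DEN in the labelled knockout was 25 with 12 libraries and 882 with DESeq2, for DEN in wild type 354 and 1953, and for the mean DEN effect 2131 and 3232. Library size scaling gave 1274 higher and 105 lower genes for DEN in wild type, where TMM gave 179 and 175; for the mean DEN effect it gave 3613 and 243, where TMM gave 1085 and 1046, and for DEN in the labelled knockout 323 and 14, where TMM gave 19 and 6.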
